A study of Mus musculus with 6 samples.

Results

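The 37 genes described here are 21 enzymes of glycolysis and its control and 16 genes of the hypoxia response, chosen by symbol from a table of 57180 genes. They comprise hexokinases through lactate dehydrogenases, pyruvate dehydrogenase kinase 1, the HIF alpha subunits, HIF prolyl hydroxylases and HIF target genes, without transporters and Vegfa. The symbols matched 38 entries of the table, because Aldoa is listed under 2 identifiers, and the second held 0 to 4 counts per library and was not used. RNA was sequenced from bone marrow-derived macrophages of wild-type mice aged 6 to 8 weeks, which are marrow cells grown into macrophages in culture for 7 days with M-CSF at 20 ng/mL. One group of 3 libraries came from cells given IL-4, a cytokine of alternative activation, together with CGRP, a neuropeptide of sensory nerves, for 24 h. The other group of 3 libraries came from cells given IL-4 alone for 24 h. IL-4 was at 20 ng/mL in both groups. All 6 libraries therefore come from IL-4-treated cells, and neither CGRP alone nor untreated cells can be described. The labels give no strain, sex, animal of origin, pooling or culture oxygen level, and nothing in them says whether replicates are separate cultures or mice. The p-values therefore describe the spread among these 6 libraries, part or all of which may be technical.

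Glycolysis turns glucose into pyruvate, and its controlled steps are hexokinase, phosphofructokinase and pyruvate kinase. Hypoxia-inducible factors (HIFs) are made of an oxygen-controlled alpha subunit and ARNT: in normal oxygen, prolyl hydroxylases mark the alpha subunit for destruction, and in low oxygen the pair binds DNA and switches on most glycolytic genes as well as genes of mitophagy and collagen processing. In macrophages, HIF-1 and glycolysis are best known from the response to bacterial products, and transcript levels of Hif1a do not report the level of its protein.

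HIF binds the core letters ACGTG or GCGTG. The 250 bases before the most upstream RefSeq start (build GRCm38.p6) are therefore shown for the 3 changed genes with such a window. They are also shown for 2 textbook HIF targets, Pgk1 and Ldha. Capitals mark the cores on either strand, where CACGT is ACGTG read on the other strand and CACGTG holds ACGTG on both strands and counts as 2. The Hif1a window (chr12:73907617-73907866, + strand) held 3 ACGTG matches. The Pfkp window (chr13:6648772-6649021, − strand) held 3 GCGTG matches and no ACGTG. The Aldoc window (chr11:78322823-78323072, + strand) held 1 GCGTG match. The Pgk1 window (chrX:106186850-106187099, + strand) held 2 ACGTG matches, and the Ldha window (chr7:46845554-46845803, + strand) held 5. A second Ldha window, not shown, held 0 ACGTG and 1 GCGTG match, and a second Aldoc window held 1 GCGTG match.
Hif1a: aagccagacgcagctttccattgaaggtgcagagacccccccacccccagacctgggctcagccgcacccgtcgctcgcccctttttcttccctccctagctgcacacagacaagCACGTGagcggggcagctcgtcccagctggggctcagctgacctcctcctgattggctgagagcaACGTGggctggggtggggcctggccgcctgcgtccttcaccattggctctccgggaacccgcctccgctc
Pfkp: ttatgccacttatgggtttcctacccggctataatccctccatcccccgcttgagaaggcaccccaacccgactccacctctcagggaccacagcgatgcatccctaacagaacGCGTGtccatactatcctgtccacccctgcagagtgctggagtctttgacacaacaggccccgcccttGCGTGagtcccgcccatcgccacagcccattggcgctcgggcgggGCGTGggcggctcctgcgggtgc
Aldoc: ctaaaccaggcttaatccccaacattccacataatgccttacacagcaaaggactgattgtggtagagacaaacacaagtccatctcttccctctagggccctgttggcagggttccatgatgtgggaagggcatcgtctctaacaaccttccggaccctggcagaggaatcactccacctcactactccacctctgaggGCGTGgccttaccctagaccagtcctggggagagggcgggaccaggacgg
Pgk1: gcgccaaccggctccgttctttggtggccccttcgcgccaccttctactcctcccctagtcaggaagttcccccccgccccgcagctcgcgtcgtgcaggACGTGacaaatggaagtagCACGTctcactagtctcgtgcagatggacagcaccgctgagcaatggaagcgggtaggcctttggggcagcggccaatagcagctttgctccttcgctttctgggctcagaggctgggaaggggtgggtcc
Ldha: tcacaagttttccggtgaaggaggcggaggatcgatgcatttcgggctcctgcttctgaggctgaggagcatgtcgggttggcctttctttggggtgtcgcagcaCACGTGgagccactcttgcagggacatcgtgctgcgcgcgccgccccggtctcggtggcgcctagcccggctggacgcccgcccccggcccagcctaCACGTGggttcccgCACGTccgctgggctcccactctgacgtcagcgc

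RefSeq windows were matched for 34 of the 37 genes, several with more than 1 start, giving 54 windows; Ndrg1, Epas1 and Bnip3l have no entry. ACGTG, on either strand, lay in 24 of the 54 windows (44.4%), against 21.5% of 12381 windows of tested genes and 16.6% of all 32851 windows. GCGTG lay in 53.7% of the windows, against 43.8% for tested genes and 28.2% for all. The cyclic AMP response core TGACG, searched on both strands because the CGRP receptor raises cyclic AMP, lay in 14.8%, against 26.2% for tested genes and 17.8% for all. The full palindrome TGACGTCA contains TGACG. It was present in 1 of the 54 windows, the Ldha window shown, and in 2.47% of windows of tested genes. Median GC content was 62.2% in the 54 windows, 59.6% for tested genes and 52.4% for all, and these shares were not corrected for it. A match is a description of the letters and not a binding site.

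Total counts ranged from 21768588 to 23869303 in IL-4+CGRP libraries and from 20088895 to 24060444 in IL-4 libraries. The 37 genes held 0.614% to 0.633% of these totals. The 9 macrophage markers summed to 14147 to 14437 CPM in IL-4+CGRP libraries and 13937 to 14156 CPM in IL-4 libraries. CPM are counts scaled to a common library total. Of the 9, 2 were called higher with CGRP by edgeR, Itgam and Cd14, against 2.32% of all genes tested. At an unadjusted edgeR p under 0.05, 3 were higher and 2 lower, Adgre1 (log2 fold change -0.11) and Cd68 (-0.10). Endothelial markers summed to 179 to 200 CPM in IL-4+CGRP libraries and 139 to 157 CPM in IL-4 libraries. Of 4 tested endothelial markers 2 were called higher by edgeR, Pecam1 and Kdr, against 2.32% of all genes tested. All 4 had log2 fold changes above 0, with a median of 0.41. Cdh5 was at 1.57 ± 0.33 CPM with CGRP and 1.09 ± 0.27 CPM without (SD, n = 3 each). Its groups overlapped and it was not called (log2 fold change 0.53, edgeR adjusted p = 0.41). Vwf, at 38.0 CPM with CGRP and 35.5 CPM without, also overlapped and was not called (log2 fold change 0.10). Stromal markers summed to 48.9 to 55.0 CPM with CGRP and 43.6 to 47.4 CPM without, with 0 of 6 tested markers called by edgeR, DESeq2 or limma-voom (2 higher at an unadjusted p under 0.05 in edgeR). Neutrophil markers summed to 34.3 to 45.1 CPM with CGRP and 37.1 to 45.9 CPM without, with Ly6g at 0. Lymphocyte markers, mostly Cd4, summed to 97.4 to 103 CPM with CGRP and 91.3 to 101 CPM without, and erythroid markers to under 0.5 CPM in every library, with Hbb-bs and Hbb-bt at 0. The part of these markers in the results below was not tested. On the first principal component of all genes (37.6% of variance), IL-4+CGRP replicate 2 lay at -0.17, between the other IL-4+CGRP libraries at 22.0 and 27.0 and the IL-4 libraries at -26.0 to -11.2. Counts are therefore also given without it. On the first component of the tested genes among the 37 (56.6% of variance), replicate 2 was less set apart from its group. There it lay at 0.51, the other IL-4+CGRP libraries at 0.86 and 0.82, and the IL-4 libraries at -1.36 to -0.24.

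CGRP added to IL-4 was accompanied by higher Hif1a, which encodes the HIF-1 alpha subunit, and Aldoc, a minor aldolase in these cells. It was accompanied by lower Pfkp, the most abundant phosphofructokinase here, and Bnip3l, which encodes the mitophagy receptor NIX. These 4 of the 35 genes with enough counts to test passed an adjusted p of 0.05 (edgeR quasi-likelihood, adjusted over all 13260 genes tested), 2 in each direction, or 11.4%, against 3.85% of all genes tested (2.32% higher and 1.54% lower). The other 31 tested genes did not pass; the 22 of them with a mean of at least 20 CPM in IL-4 libraries had log2 fold changes of at most 0.25 in size and 95% intervals that stayed within 0.462 of 0. Egln3 and Ankrd37 were too low to test. Log2 fold changes were above 0 for 18 and below 0 for 17 of the 35, with a median of 0.01, against 49.2% above 0 and a median of -0.004 for all genes. The libraries of the groups did not overlap for 15 of the 35 genes (42.9%), 5 higher and 10 lower with CGRP, against 21% of all genes tested (11.1% higher and 9.92% lower).

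Without IL-4+CGRP replicate 2, 36 of the genes were tested and 4 were called higher (Aldoc, Gapdh, Hif1a and Ndrg1). In the same fit 7 were called lower (Hk2, Hk3, Pfkp, Aldoa, Pgk1, Ldha and Bnip3l). Of all 13492 genes tested in that fit, 915 were called higher and 950 lower, against 307 and 204 of 13260 with all 6 libraries. Calls without that library thus rose over all genes, and passing there is not particular to the genes described here. Leaving out any of the other 5 libraries gave 0 higher genes and 0 or 1 lower gene, which is Pfkp where there is 1. IL-4+CGRP replicate 2 was the lowest library of its group for 19 of the 35 genes, and IL-4 replicate 3 the highest of its group for 19. The signs of the 4 log2 fold changes were the same in every alternative run.

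**Figure D1:**
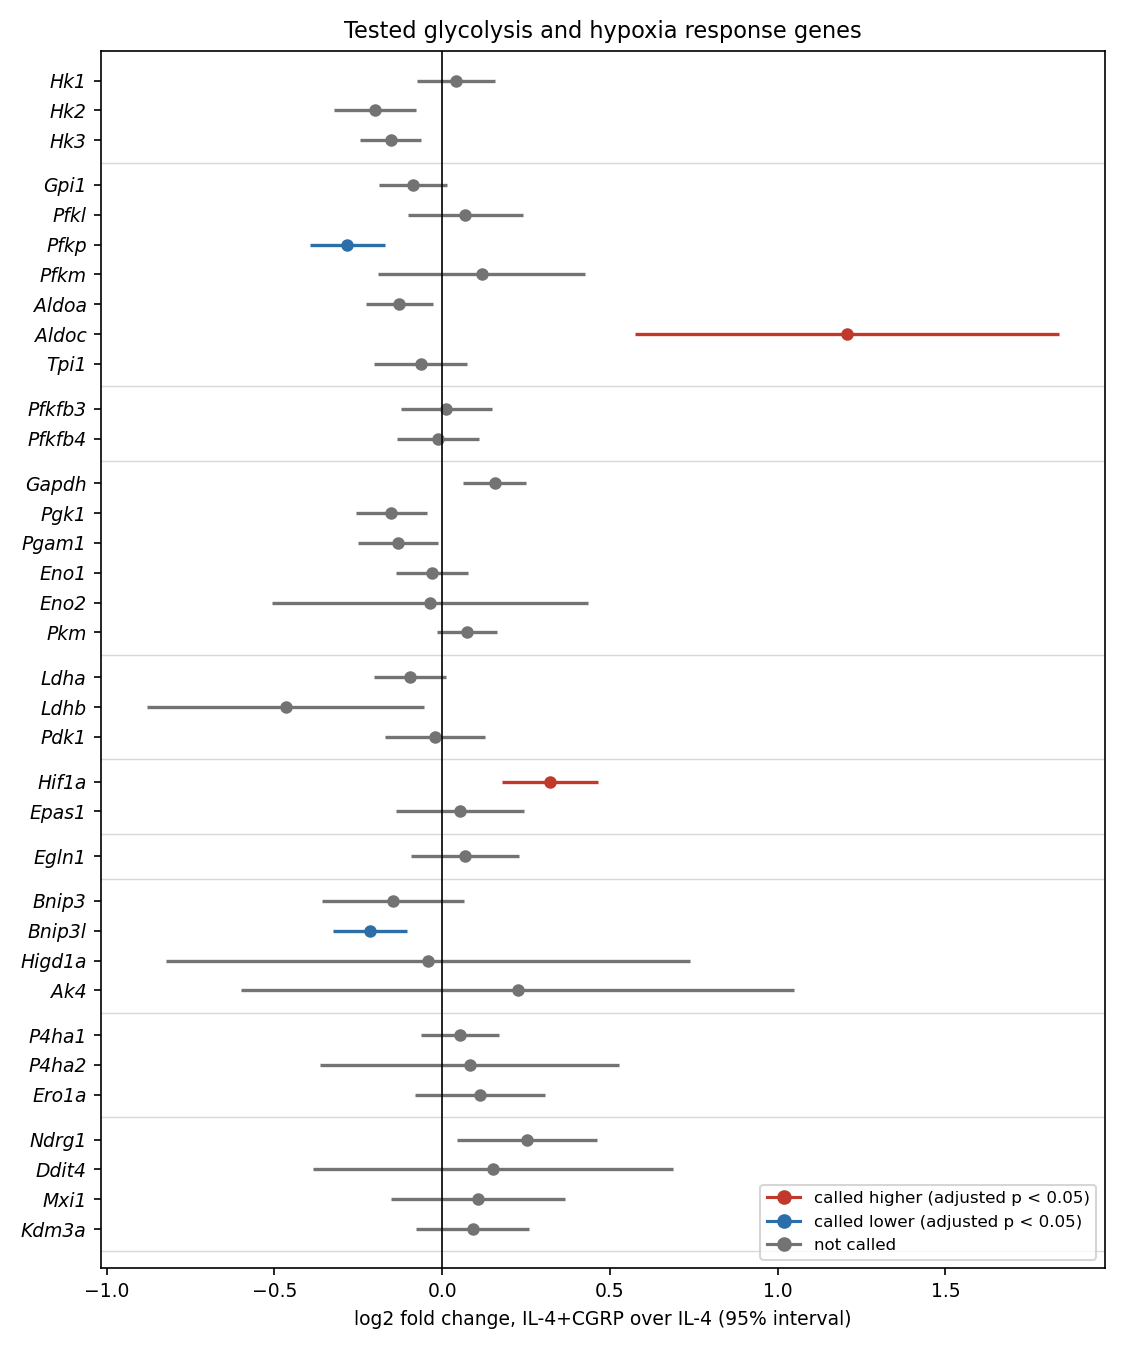
Log2 fold change (horizontal axis) of IL-4+CGRP over IL-4 for each of the 35 tested glycolysis and hypoxia genes, ordered by role, as points with 95% intervals from the edgeR fit; coloured points passed the adjusted p of 0.05. Hif1a and Aldoc lie right of 0, Pfkp and Bnip3l left of 0, and 8 further genes have intervals clear of 0 without passing after adjustment.

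Hif1a rose with CGRP. It had 108.2, 93.1 and 106.5 CPM in IL-4+CGRP replicates 1 to 3, and 83.2, 79.2 and 84.0 CPM in IL-4 replicates 1 to 3. All 3 libraries with CGRP lay above all 3 without it, replicate 2 being the lowest of its group. The log2 fold change was 0.32 ± 0.06 (SE; edgeR adjusted p = 0.0169), or 1.25-fold. In the leave-one-out fits it ranged from 0.28 to 0.39, with an adjusted p under 0.05 only without IL-4+CGRP replicate 2 and up to 0.127 otherwise.

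Epas1, which encodes the HIF-2 alpha subunit, was less abundant than Hif1a per kilobase of transcript (4.06 against 21.7 CPM per kilobase with CGRP). It had 22.7, 20.3 and 24.2 CPM in IL-4+CGRP libraries and 20.4, 22.3 and 22.0 CPM in IL-4 libraries, which overlapped. Its log2 fold change was 0.05 (95% interval -0.14 to 0.24; edgeR adjusted p = 0.809). Per kilobase, Hif1a made up 84.3% ± 0.55 of the Hif1a and Epas1 level with CGRP and 81.6% ± 1.04 without it (SD, n = 3 each), with no overlap (exact permutation test, two-sided, p = 0.1, the smallest 3 against 3 libraries can give; 0.3 after Benjamini-Hochberg adjustment over the 12 isozyme shares tested).

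Egln1, the main HIF prolyl hydroxylase, had 23.9 ± 1.06 CPM with CGRP and 22.9 ± 0.20 CPM without it (edgeR adjusted p = 0.706). Egln3, a hydroxylase that hypoxia itself induces, had 8, 8 and 10 counts in IL-4+CGRP libraries and 12, 3 and 14 counts in IL-4 libraries. Its groups overlapped at these low counts, and it was not tested. Of the 14 tested HIF subunit, hydroxylase and target genes, 11 had log2 fold changes above 0 and 3 below 0. Their median was 0.09, against -0.004 for all genes tested, of which 49.2% lay above 0. Only Hif1a and Bnip3l of the 14 passed (14.3%, against 3.85% of all genes tested).

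**Figure D2:**
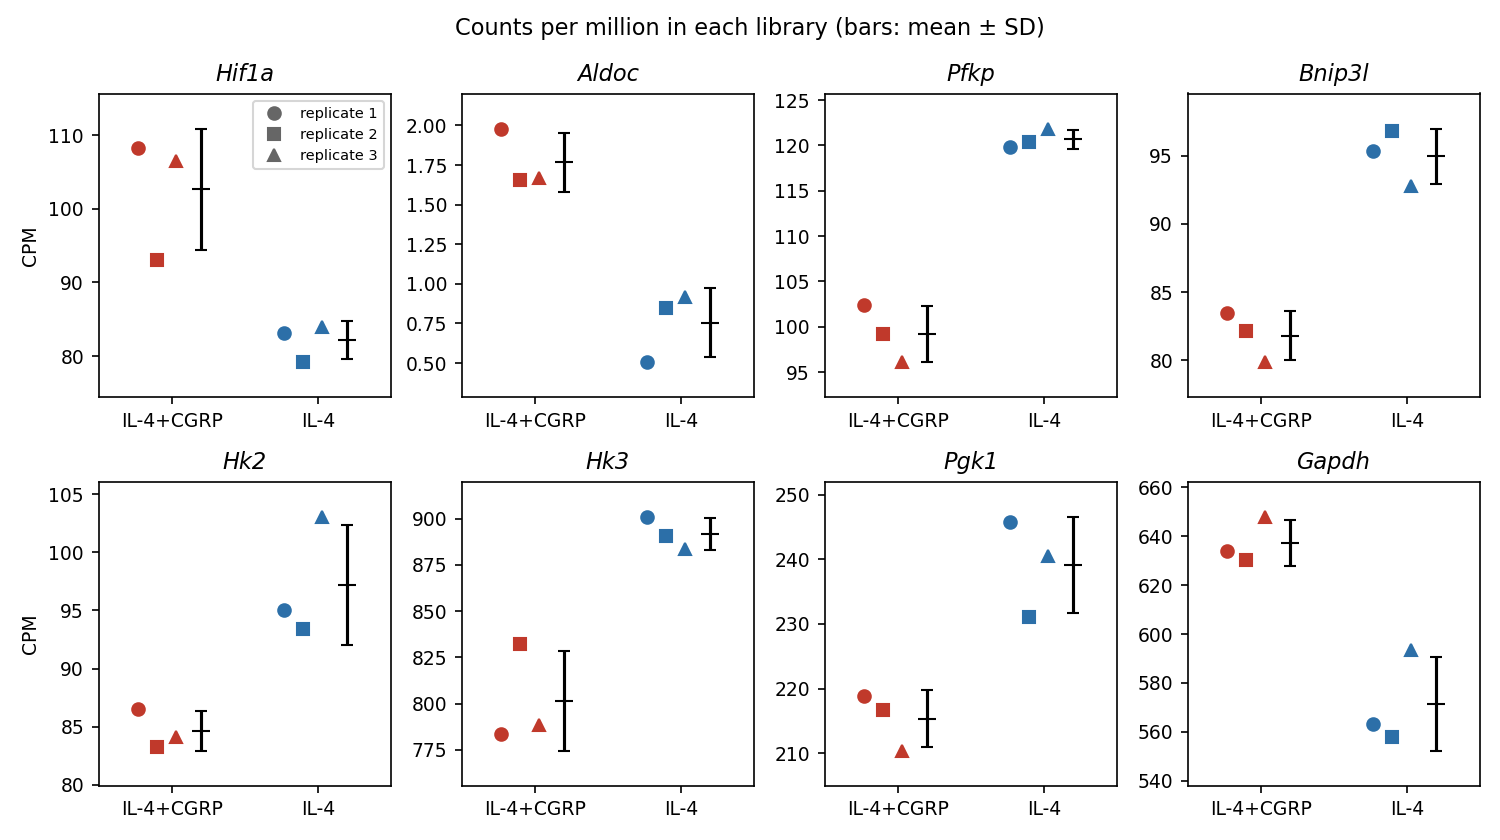
CPM (vertical axes, which do not start at 0) of 8 genes in each library of the IL-4+CGRP group (left, red) and the IL-4 group (right, blue); markers stand for the replicate and bars for the mean and SD of 3 libraries. Hif1a, Aldoc and Gapdh are higher with CGRP, and Pfkp, Bnip3l, Hk2, Hk3 and Pgk1 are lower in every library of that group.

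Among HIF targets of mitophagy and mitochondria, Bnip3l fell with CGRP. It had 83.4, 82.1 and 79.9 CPM in IL-4+CGRP libraries, against 95.3, 96.8 and 92.8 CPM in IL-4 libraries. All 3 libraries with CGRP lay below all 3 without it. The log2 fold change was -0.21 ± 0.05 (edgeR adjusted p = 0.0373). With library totals as the only scaling the adjusted p was 0.0787, with DESeq2 0.0819, and it was 0.109 to 0.173 in the 5 leave-one-out fits that kept IL-4+CGRP replicate 2. Bnip3, the related receptor, had 9.28, 9.69 and 10.3 CPM with CGRP and 11.1, 10.3 and 11.0 CPM without it. Its groups were all but touching, at 10.3 CPM in IL-4+CGRP replicate 3 and in IL-4 replicate 2. The log2 fold change of -0.15 (95% interval -0.36 to 0.06) did not pass (edgeR adjusted p = 0.513). Higd1a, a small mitochondrial protein, had 8.42, 16.3 and 8.69 CPM in IL-4+CGRP libraries and 13.7, 11.2 and 9.55 CPM in IL-4 libraries. Its value turns on replicate 2 with CGRP: the log2 fold change was -0.04 with that library and -0.42 without it (edgeR adjusted p = 0.964 and 0.0603). Ak4, an adenylate kinase, was at 0.48 CPM with CGRP and 0.41 CPM without.

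Of the 7 other HIF targets tested, 0 passed by edgeR, DESeq2 or limma-voom, and 1 had an unadjusted p under 0.05, Ndrg1. Ndrg1, an iron and stress response gene, had 36.6, 27.8 and 30.8 CPM in IL-4+CGRP libraries and 25.9, 26.5 and 27.5 CPM in IL-4 libraries. The groups did not overlap, but replicate 2 with CGRP lay next to IL-4 replicate 3 (log2 fold change 0.25, edgeR adjusted p = 0.212). The edgeR adjusted p of Ndrg1 was 0.00827 without IL-4+CGRP replicate 2 and reached 0.649 in the other leave-one-out fits. The other 6 had overlapping groups and means that were all higher with CGRP. The histone demethylase Kdm3a averaged 50.7 CPM with CGRP and 47.6 CPM without. The MYC antagonist Mxi1 averaged 15.6 CPM with CGRP and 14.4 CPM without. The mTOR inhibitor Ddit4 averaged 2.87 CPM with CGRP and 2.57 CPM without. Collagen and disulfide enzymes were close between groups: the procollagen prolyl hydroxylase subunit P4ha1 averaged 140 CPM with CGRP and 135 CPM without, P4ha2 3.61 CPM with CGRP and 3.39 CPM without, and the disulfide oxidase Ero1a 30.8 CPM with CGRP and 28.4 CPM without. Ankrd37 had 12, 5 and 2 counts with CGRP and 3, 4 and 8 counts without it and was not tested.

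At the first step of glycolysis, hexokinase, the 3 genes differed in level and direction. Per kilobase Hk3 was the most abundant. It had 783.6, 832.5 and 788.6 CPM in IL-4+CGRP libraries and 900.8, 890.5 and 883.6 CPM in IL-4 libraries. Hk2 had 86.5, 83.3 and 84.1 CPM with CGRP and 95.03, 93.4 and 103 CPM without it. Both were lower with CGRP in every library, but neither passed (log2 fold change -0.15 and edgeR adjusted p = 0.0676 for Hk3, -0.20 and 0.0812 for Hk2). Both passed without a count filter (0.043 and 0.0376), and without IL-4+CGRP replicate 2 (0.00271 and 0.0331). In the other leave-one-out fits the edgeR adjusted p reached 0.307 for Hk3 and 0.283 for Hk2. Hk1 had 128 CPM with CGRP and 124 CPM without, with overlapping groups (log2 fold change 0.04). Per kilobase, Hk3 made up 83.7% ± 0.55 of the 3 hexokinases with CGRP and 84.7% ± 0.58 without (SD, n = 3 each; exact permutation p = 0.2), and the groups overlapped in this share.

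Phosphofructokinase had the clearest fall among the glycolytic enzymes. Pfkp had 102, 99.2 and 96.1 CPM in IL-4+CGRP libraries, against 119.8, 120.4 and 121.9 CPM in IL-4 libraries. All 3 libraries with CGRP lay below all 3 without it, which were nearly level. The log2 fold change was -0.28 ± 0.05, or 0.822 of the IL-4 level (edgeR adjusted p = 0.00923), and it ranged from -0.31 to -0.26 over the alternatives. Without IL-4 replicate 2 or 3 the adjusted p was 0.0571 or 0.0622. Pfkl, the liver form, had 42.3, 41.9 and 36.1 CPM with CGRP and 36.3, 37.4 and 41.0 CPM without it, and its groups overlapped. Pfkm, the muscle form, had 9.90 ± 0.43 CPM with CGRP and 9.14 ± 1.98 CPM without it (SD, n = 3 each), also with overlap. Per kilobase, the Pfkp share of the 3 phosphofructokinases was 72.2% ± 0.59 with CGRP and 77.0% ± 0.82 without it, without overlap (exact permutation p = 0.1, 0.3 after adjustment over 12 shares). The Pfkl share was 20.9% ± 1.11 with CGRP and 17.5% ± 0.94 without it (exact permutation p = 0.1). Among the enzymes of fructose 2,6-bisphosphate, the activator of phosphofructokinase, Pfkfb3 had 112, 97.5 and 110 CPM with CGRP and 102, 107 and 107 CPM without it, with overlapping groups. Its log2 fold change was 0.01 (95% interval -0.12 to 0.15), and that of Pfkfb4 was -0.01 (-0.13 to 0.11).

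Aldoc, at a low level in these cells, rose with CGRP. It had 48, 36 and 37 counts (1.98, 1.65 and 1.67 CPM) in IL-4+CGRP libraries and 10, 18 and 22 counts (0.51, 0.84 and 0.92 CPM) in IL-4 libraries. All 3 libraries with CGRP lay above all 3 without, at counts where counting error is large. The log2 fold change was 1.21 ± 0.29, or 2.31-fold (edgeR adjusted p = 0.0408; 0.0675 by DESeq2). It passed in 1 of the 6 leave-one-out fits, that without IL-4+CGRP replicate 2, and its adjusted p was 0.0991 to 0.186 in the other 5. Aldoa, the main aldolase, had 470.7, 506.7 and 485.7 CPM in IL-4+CGRP libraries and 542.7, 516.2 and 539.1 CPM in IL-4 libraries. It was lower with CGRP in every library, with a log2 fold change of -0.13 that did not pass (edgeR adjusted p = 0.186). Aldoc was 0.202% ± 0.028 of aldolase per kilobase with CGRP and 0.0791% ± 0.024 without it (SD, n = 3 each; exact permutation p = 0.1).

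The rest of the pathway was mixed in direction. Gapdh, glyceraldehyde-3-phosphate dehydrogenase, had 634.1, 630.1 and 647.9 CPM in IL-4+CGRP libraries and 563.1, 558.0 and 593.6 CPM in IL-4 libraries. It was higher with CGRP in every library (log2 fold change 0.16, edgeR adjusted p = 0.0738). The edgeR adjusted p of Gapdh was 0.0492 without a count filter and reached 0.323 in the leave-one-out fits. Pgk1, phosphoglycerate kinase, had 219, 217 and 210 CPM with CGRP and 246, 231 and 240 CPM without it. It was lower in every library with CGRP (log2 fold change -0.15; edgeR adjusted p = 0.133). Pkm, pyruvate kinase, had 1203, 1260 and 1230 CPM with CGRP and 1191, 1127 and 1191 CPM without it. Its groups did not overlap (log2 fold change 0.07; edgeR adjusted p = 0.42).

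Ldha, the lactate dehydrogenase subunit that favours lactate formation, had 536.5, 575.4 and 515.4 CPM in IL-4+CGRP libraries and 582.3, 592.0 and 565.4 CPM in IL-4 libraries. These overlapped, through IL-4+CGRP replicate 2 (log2 fold change -0.10, edgeR adjusted p = 0.377). The edgeR adjusted p of Ldha was 0.025 without that library and reached 0.798 in the other leave-one-out fits. Ldhb, the other subunit, was scarce, with 2.71 ± 0.47 CPM with CGRP and 3.77 ± 0.52 CPM without it (log2 fold change -0.47, 95% interval -0.88 to -0.05; edgeR adjusted p = 0.249). Pdk1, the kinase that shuts pyruvate out of the citric acid cycle, had a log2 fold change of -0.02 (95% interval -0.17 to 0.13). Glucose-6-phosphate isomerase, Gpi1, and phosphoglycerate mutase, Pgam1, were lower with CGRP in every library, at log2 fold changes of -0.09 and -0.13 that did not pass (edgeR adjusted p = 0.397 and 0.259). Triosephosphate isomerase, Tpi1, and the enolases Eno1 and Eno2 had overlapping groups, at log2 fold changes of -0.06, -0.03 and -0.04. Counts of Pgam1 can be shared with the near copy Pgam1-ps2, whose counts were 5.19% to 14.5% of those of Pgam1; with both summed the log2 fold change was -0.15 (edgeR adjusted p = 0.119). Copies of Gapdh held at most 0.221% of its counts.

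**Figure D3:**
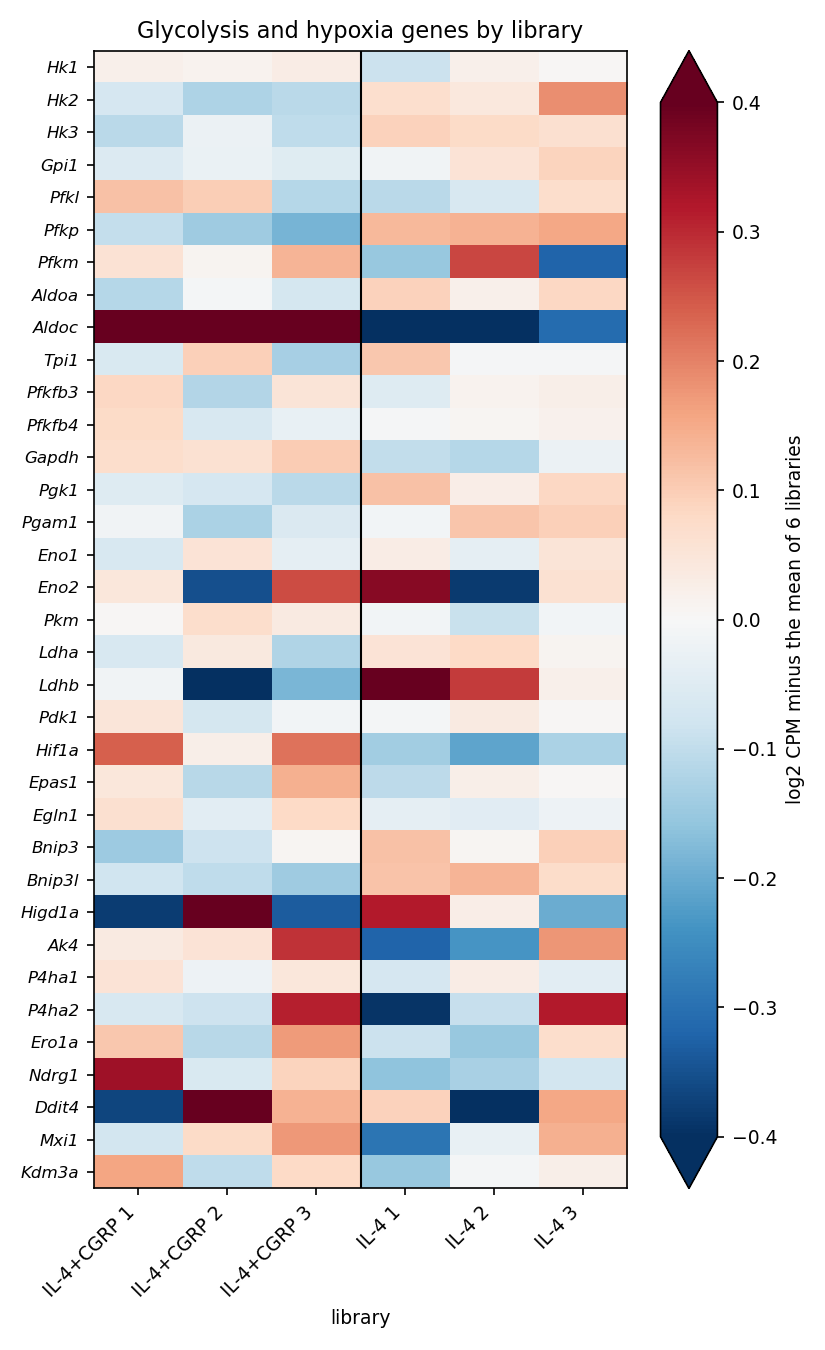
Log2 difference of each tested gene (rows, by role) in each library (columns, IL-4+CGRP replicates 1 to 3 left of IL-4 replicates 1 to 3) from the mean of all libraries; colours stop at ±0.4, which Aldoc and a few single values exceed. Hif1a and Gapdh are higher in all 3 IL-4+CGRP columns, Pfkp and Bnip3l lower, and replicate 2 with CGRP departs from its group in Higd1a.

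Summed per kilobase by step, 11 steps from hexokinase to lactate dehydrogenase were compared as a description. Phosphofructokinase was the scarcest step, at 51.3 ± 1.92 CPM per kilobase with CGRP and 58.5 ± 0.94 without it (SD, n = 3 each), a ratio of 0.877. Pyruvate kinase was the most abundant, at 603 ± 13.9 CPM per kilobase with CGRP and 573 ± 18.2 without it, a ratio of 1.05. Glyceraldehyde-3-phosphate dehydrogenase had a ratio of 1.12. The other 8 steps had ratios from 0.901 to 0.98, and the groups of triosephosphate isomerase, enolase and lactate dehydrogenase overlapped. In bulk RNA, less RNA per cell cannot be told apart from fewer cells that carry it. Of the 16 tested enzymes from hexokinase to pyruvate kinase, 10 had log2 fold changes below 0, and 10 had groups that did not overlap, 3 higher and 7 lower (62.5%, against 21% of all genes tested, 11.1% higher and 9.92% lower).

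**Figure D4:**
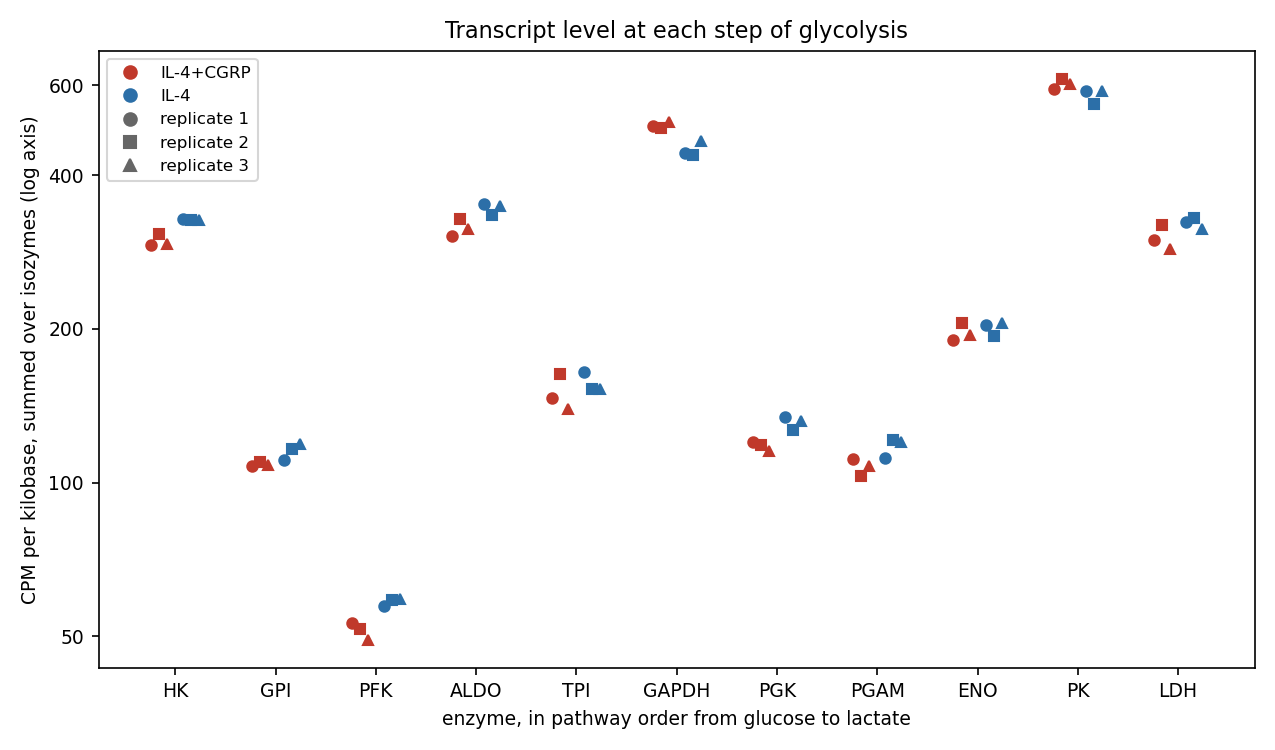
Level of each step of glycolysis (horizontal axis, in pathway order) in CPM per kilobase summed over isozymes (vertical log axis), with a point for each IL-4+CGRP library (left, red) and each IL-4 library (right, blue). Pyruvate kinase is the highest step and phosphofructokinase the lowest in both groups; of the 11 steps, glyceraldehyde-3-phosphate dehydrogenase and pyruvate kinase are the 2 whose IL-4+CGRP libraries all lie above the IL-4 libraries.

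Other genes of these pathways were counted from further lists. Of 27 tested other HIF target genes, 3 rose and 0 fell by edgeR, where 2.32% of all genes tested were called higher and 1.54% lower. At an unadjusted edgeR p under 0.05, 6 of the 27 were higher and 1 lower. DESeq2 called 3 higher and 0 lower, and limma-voom 2 and 0. Vegfa, the vascular growth factor, had 35.4 ± 2.93 CPM with CGRP and 19.0 ± 1.29 CPM without it, with a log2 fold change of 0.89 (edgeR adjusted p = 0.000117). Hilpda, a lipid droplet protein, had a log2 fold change of 0.90 (edgeR adjusted p = 0.0272). It had 8.46, 13.3 and 8.38 CPM in IL-4+CGRP libraries and 5.97, 5.02 and 5.13 CPM in IL-4 libraries, replicate 2 with CGRP being the highest. Genes called higher on this list numbered 1 with the replicate block and 1 to 5 in the leave-one-out fits. Of 12 tested HIF pathway components 0 passed, with 3 at an unadjusted p under 0.05; the lowest p were those of Arnt (log2 fold change 0.15; edgeR adjusted p = 0.238) and Cited2 (-0.18; 0.259). Of 12 pentose phosphate genes, Prps1, which makes phosphoribosyl pyrophosphate, rose by 0.40 on the log2 scale (edgeR adjusted p = 0.00837). Tkt, transketolase, had 218 ± 3.62 CPM with CGRP and 252 ± 0.44 CPM without it (SD, n = 3 each) and fell by 0.21 (edgeR adjusted p = 0.023). On this list 0 genes were lower with library totals alone or the replicate block. The leave-one-out fits also gave 0 lower, except that without IL-4+CGRP replicate 2, which gave 4. They gave 1 higher, except 0 without IL-4+CGRP replicate 1 or IL-4 replicate 3. Of 9 glucose and lactate transporters 0 passed and 3 had an unadjusted p under 0.05, with Slc2a9, a urate and glucose carrier, at 0.21 (edgeR adjusted p = 0.098) and Slc16a3, which exports lactate, at 0.27 (0.16). Of 12 tested pyruvate dehydrogenase genes 0 passed and 1 had an unadjusted p under 0.05, the lowest p being that of Dld (-0.15; edgeR adjusted p = 0.244) and Pdhb (-0.12; 0.494). Of 6 tested tissue-restricted isozymes 0 passed and 1 had an unadjusted p under 0.05. Pgam2, the muscle phosphoglycerate mutase, had 20, 14 and 17 counts with CGRP and 5, 8 and 7 counts without it (edgeR adjusted p = 0.0957), and Pfkfb1 had a log2 fold change of -0.57 (0.373). DESeq2 and limma-voom also called 0 genes on these 4 lists. The lists, like the 37 genes, were chosen with earlier results of these data known.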

How the data were processed

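RNA was measured in 3 IL-4+CGRP and 3 IL-4 libraries. Per the labels' protocols, TRIzol-extracted RNA of quality number 6.5 or above (1 µg) went into a stranded mRNA kit. The table deposited by the authors holds expected counts (estimated counts) for 57180 genes, made with fastp, HISAT2 and StringTie on build GRCm39 per the submitters' processing notes, with a gene length for each. The sources used here give no versions, annotation or strand setting of counting. Overlapping or antisense genes may therefore share reads. No CGRP concentration is given here, since the label text is ambiguous about it. The authors' group means served only to check columns, and 0 columns of per-sample values were unassigned.

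Because 23.3% to 26.6% of values above 0 were not whole numbers (tolerance 1e-06), counts were rounded. filterByExpr kept 13260 genes with 99.9% of counts, and TMM factors were 0.985 to 1.016. The 2 groups were compared in edgeR 4.0.16 (R 4.3.3) with the robust quasi-likelihood test, two-sided and without covariates. P-values were adjusted by Benjamini-Hochberg over all tested genes, with 0.05 as the limit. The biological coefficient of variation was 8.62%. Levels per kilobase use the deposited lengths. Isozyme shares were compared by exact permutation over libraries (numpy 2.4.6) and adjusted by Benjamini-Hochberg (statsmodels 0.14.6).

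Alternatives were other scalings and count filters, DESeq2 1.42.0, limma-voom (limma 3.58.1), a non-robust dispersion fit, the replicate number as a block, near copies added to their gene, and leaving out each library. Removing the gene length trend, and leaving out 2 libraries together, were chosen after seeing the data. The 37 genes and all lists were chosen with earlier results of these data known. Values in every library are given for called genes and for 9 genes chosen by role. They are also given for the 6 with the smallest p among those not called, where Hk2 and Gapdh are in both sets. For other lists, up to 4 called genes are named, or the 2 with the smallest p where none was called. Of the genes this rule names, 1 is not reported here. Scripts were tested on simulated data. Promoter letters are from RefSeq (GRCm38.p6), another build than that of the counts, matched by symbol.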

Additional observations from a re-analysis of the deposited data

How the results depend on the processing

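The median of the 35 genes moved by less than the spread between replicates under every alternative. With library totals alone 2 genes were higher and 1 lower, and the other lists had 0 lower. No count filter gave 4 higher and 4 lower, 584 and 434 over all genes, and 2 lower on the other lists. A mean count of at least 50 gave 1 higher (Aldoc not tested), DESeq2 1 and 1, and non-robust dispersion 1 higher. The deviations of libraries with the same replicate number from their group means correlated at -0.19, -0.18 and 0.13. Of the 3 IL-4+CGRP libraries, 1 correlated best with its own number. Deviations within a group of 3 cancel out, so these values cannot decide whether replicate numbers pair the libraries. With the replicate block 1 gene was higher and 0 lower, 176 and 86 over all genes, and 2 and 0 on the other lists, where the test has fewer degrees of freedom; Pfkp had an adjusted p of 0.0626. With the gene length trend removed 5 genes were lower (Hk2, Hk3, Pfkp, Pgk1 and Bnip3l), 521 over all genes and 3 on the other lists. Without IL-4+CGRP replicate 2 and IL-4 replicate 1 together, 4 were higher and 9 lower, 1066 and 1187 over all genes, and 10 and 11 on the other lists. Leaving out each library in turn gave 0 to 4 higher and 0 to 7 lower, 140 to 915 and 80 to 950 over all genes, and 1 to 10 and 0 to 10 on the other lists. Among genes that did not pass, some signs turned, and the cause was not tested. With library totals alone the log2 fold change was 0.016 for Pfkfb4 and 0.0057 for Pdk1, where the median of all genes moved from -0.0042 to 0.023. Leaving out both libraries gave 0.013 for Pfkfb4, 0.29 for Eno2, -0.0020 for P4ha2 and -0.0073 for Mxi1. Over the leave-one-out fits it ran from -0.015 to 0.30 for Pfkm, -0.032 to 0.071 for Pfkfb3, -0.059 to 0.018 for Pfkfb4, -0.21 to 0.15 for Eno2, -0.058 to 0.0081 for Pdk1, -0.012 to 0.12 for Epas1, -0.42 to 0.12 for Higd1a, -0.066 to 0.29 for P4ha2, -0.051 to 0.34 for Ddit4 and 0.0011 to 0.21 for Mxi1. Differences in isozyme shares ran from -0.14 to 0.167 percentage points for Eno2, -0.174 to 0.751 for Pfkfb3, -1.28 to 0.0422 for Egln3 and -0.305 to 0.70 for P4ha2. The other 8 isozyme shares kept their sign in every leave-one-out fit. Depth limits Aldoc, Ak4, Egln3 and Ankrd37, all under 50 counts per library.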
